A study of Mus musculus with 18 samples.

Results

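The genes described here encode proteins that build and run the mitotic cell. They are 54 genes listed by symbol, from the cyclins and kinases that start mitosis to the proteins that complete cytokinesis, and all 54 were found among the 30583 genes of the count table. Myocardial infarction was produced in mice by tying the left anterior descending coronary artery, which cuts off blood flow to part of the left ventricle. RNA was sequenced from 18 male C57BL/6JR mice aged 12 weeks, in 6 groups of 3. The operated groups were killed at 5 times after ligation, from 10 min and 1 h over 6 h to the late times of 24 h and 72 h. Sham mice, given as 0 h, had the suture passed around the artery and left untied. All 6 groups shared the sodium pentobarbital anaesthesia and the chest operation, and no gene or drug treatment is described. The only sham group is the one given as 0 h. Ligation and time since the operation therefore cannot be told apart in the comparisons with sham. The labels name cardiomyocytes as the cell type, but the source is heart tissue and no separation of cells is described, so the libraries are read here as whole tissue.

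Mitosis separates the copied chromosomes into a pair of daughter nuclei. Cyclin B with Cdk1 starts it, condensins compact the chromosomes, kinetochores attach them to spindle microtubules, and the checkpoint holds anaphase back until every kinetochore is attached. The anaphase promoting complex with Cdc20 then releases the sister chromatids, and the central spindle and contractile ring divide the cell. Most of these genes are transcribed mainly in dividing cells, from promoters that the MuvB complex binds with B-Myb and FoxM1 through a short element called the cell cycle homology region, and that often carry CCAAT boxes. Adult cardiomyocytes divide rarely, while immune cells, fibroblasts and endothelial cells of an injured heart can divide.

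The promoters of 6 of the genes are shown because their transcripts are followed below and because they span the range from several of these elements to none. Each line is the 120 bases before the gene, read in the direction of transcription from the RefSeq promoter table for GRCm38.p6, and ends upstream of the start of the gene in both RefSeq and GENCODE M21. Capitals mark CCAAT or its reverse complement ATTGG, and the cell cycle homology letters in the forms TTTGAA or TTCGAA or the reverse complement TTCAAA. The stretches lie at chr10:69352939-69353058 (minus strand), chr4:118437353-118437472 (minus), chr11:99024190-99024309 (minus), chr19:37376262-37376381 (plus), chr13:100786571-100786690 (minus) and chr11:117849117-117849236 (plus), and none of them overlaps another annotated gene.
Cdk1: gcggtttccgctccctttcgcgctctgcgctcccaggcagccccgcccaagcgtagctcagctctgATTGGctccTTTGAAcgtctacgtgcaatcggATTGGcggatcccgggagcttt
Cdc20: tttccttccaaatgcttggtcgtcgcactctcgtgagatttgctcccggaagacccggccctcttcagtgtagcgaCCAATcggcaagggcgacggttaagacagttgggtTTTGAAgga
Top2a: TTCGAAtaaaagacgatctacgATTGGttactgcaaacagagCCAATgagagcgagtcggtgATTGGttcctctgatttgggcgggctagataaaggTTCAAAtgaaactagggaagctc
Kif11: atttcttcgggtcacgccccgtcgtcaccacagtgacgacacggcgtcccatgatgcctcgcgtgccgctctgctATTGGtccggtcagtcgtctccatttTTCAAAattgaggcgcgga
Ccnb1: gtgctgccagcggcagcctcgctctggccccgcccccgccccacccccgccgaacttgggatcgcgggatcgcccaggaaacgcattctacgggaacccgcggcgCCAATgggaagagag
Birc5: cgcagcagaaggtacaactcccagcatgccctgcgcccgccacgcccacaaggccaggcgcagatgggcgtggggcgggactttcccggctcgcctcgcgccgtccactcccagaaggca
The Cdk1 stretch held 2 CCAAT boxes and 1 homology element, and the Top2a stretch held 3 and 2. Cdc20 and Kif11 held 1 of each, Ccnb1 held 1 CCAAT box alone, and the Birc5 stretch held neither.

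Library totals ran from 18199172 to 25062351 counts, and mitochondrial genes took 22.29% to 27.38% of them up to 6 h. At 24 h that share was 22.83%, 17.75% and 24.02% in replicates 1 to 3, and at 72 h it was 8.41% to 10.53%. Between groups it was lowest at 72 h, where the mitosis genes were highest. Within 24 h, replicate 2 had the lowest share and the highest mitosis sum. Within 72 h, replicate 3 had the lowest share and replicate 2 the highest mitosis sum. The part of the mitochondrial share in the results was not tested. Levels are given as CPM, the count of a gene scaled to a fixed library total, after TMM scaling, which sets the library sizes so that most genes keep their level, and group values are means ± SD of 3 mice. A gene was called changed at an adjusted p under 0.05 from edgeR's quasi-likelihood test over 16311 genes. The fit used all 18 libraries and p-values were adjusted with the Benjamini-Hochberg method. Comparisons with sham share the same 3 sham libraries and are therefore given side by side. Of the 54 genes, 34 passed the filter on low counts even when the 72 h libraries were left out of it, and 20 passed only because of those libraries. These 20 were Ccnb1, Ccnb2, Plk1, Mybl2, Ncapg, Cenpe, Ndc80, Nuf2, Knl1, Bub1, Ttk, Aurkb, Birc5, Ckap2l, Kif2c, Kif14, Kif15, Kif18b, Sgo1 and Ect2. Their adjusted p-values and calls at 72 h are given below as descriptions, since the filter used the same counts. This holds within the counts and medians by role as well. In bulk tissue, fewer cells of a type and less RNA per cell cannot be told apart. Summed cardiomyocyte markers (15 genes) were 97521, 93708 and 91274 CPM in the sham libraries, 64537, 60118 and 42090.3 at 24 h, and 31729, 23960.2 and 25096 at 72 h.

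At 72 h nearly all of the mitosis genes were higher than in sham hearts. 52 of the 54 were called higher than sham and none lower, where 34.2% of all genes tested were higher and 32.2% lower. The median log2 fold change was 5.15 over the 54 genes and 0.03 over all genes. The smallest was 0.08 for Cenpa and the largest 8.45 for Kif2c. The 34 genes that passed the filter without the 72 h libraries had 32 called higher and a median of 4.77. The other 20 entered the test through their 72 h counts, so that their calls at that time follow from the filter. Without any filter the count was also 52 higher and 0 lower, with a median of 5.17. Log2 fold changes of at least 4, a change of 16-fold, were fitted for 43 of the 54 genes, 23 of them among the 34, and for 3.43% of all genes. At least 64-fold was reached by 16 of the 54 and by 1.12% of all genes, and the 16 include genes that entered through their 72 h counts, such as Kif2c and Ccnb1. Each of the 54 genes was higher at 72 h than at 24 h, with a median log2 fold change of 4.0 (4.76 without 24 h replicate 2). Of all genes, 24.4% were called higher and 26.1% lower in that comparison. The 34 genes that passed without the 72 h libraries were 34 of 34 higher there, with a median of 3.66. By an F test over the 5 times together, 54 of 54 were called, beside 78.4% of all genes. The other 20 were admitted by counts that enter both tests, so their calls there follow from the filter as well.

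The summed level shows the same course. The 54 genes together made up 121 ± 9.11 CPM in sham, 121 ± 6.01 at 10 min, 119.7 ± 5.75 at 1 h and 110.2 ± 8.17 at 6 h (SD, n = 3 in each group). The sum was 128 ± 44.0 CPM at 24 h and 1177 ± 171 CPM at 72 h. The 5 genes with the highest sham levels, Cenpa, Ncapd2, Smc4, Cenpf and Spc24, accounted for 73.4% ± 2.44 of the sham sum, 48.9% of the sum at 24 h and 14.3% at 72 h. Without them, the other 49 genes summed to 32.1 ± 3.26 CPM in sham and 30.6 ± 0.513 CPM at 6 h. These 49 then stood at 47.7, 109 and 46.5 CPM in the 3 libraries at 24 h, and at 871, 1185 and 972 CPM at 72 h. The groups at 24 h and 72 h did not overlap with each other or with sham in this sum. In counts, the 54 genes held 2157 to 2722 reads in a sham library and 32571 to 44789 in a 72 h library. 42 of the 54 averaged under 1 CPM in sham, 24 did at 24 h and none did at 72 h.

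**Figure D1:**
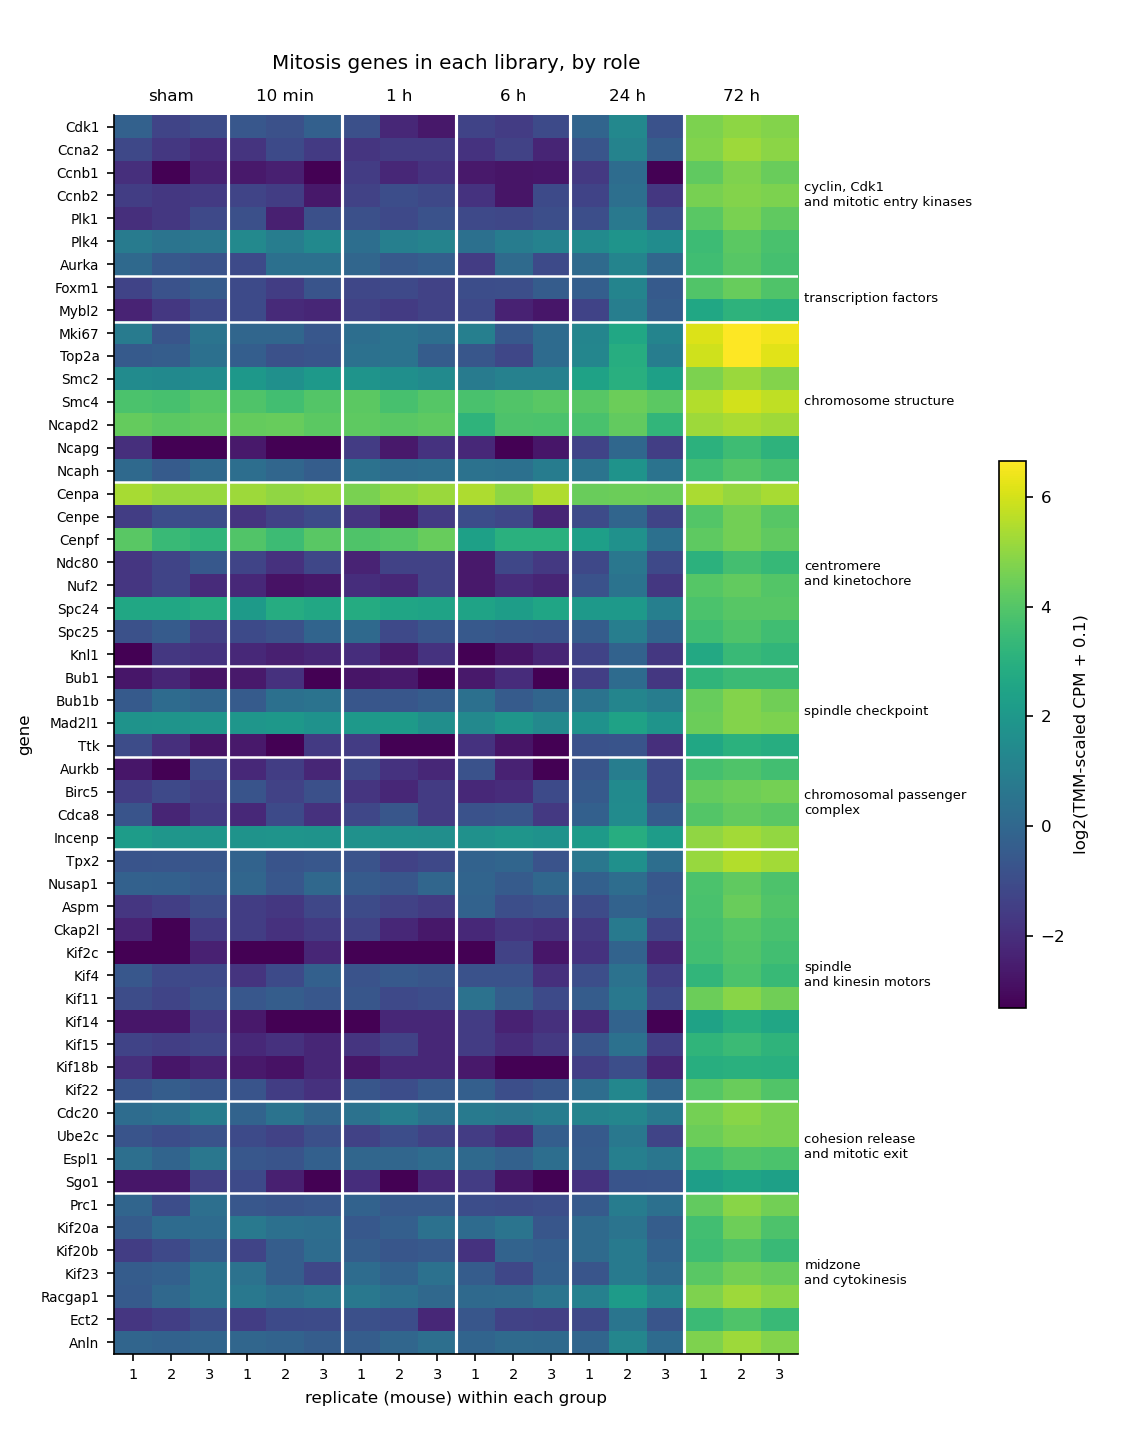
Level of each of the 54 genes (vertical axis, ordered by role) in each of the 18 libraries (horizontal axis, 3 mice per group), as log2 of TMM-scaled CPM plus 0.1 on the colour scale. The 3 columns at 72 h stand apart for nearly every gene, 24 h replicate 2 is brighter than the libraries beside it, and Cenpa, Cenpf, Smc4 and Ncapd2 are bright from the sham group on.

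The 7 genes of the cyclins and mitotic entry kinases were all higher at 72 h, with a median log2 fold change of 6.34 and a range of 3.25 to 7.98. Ccnb1, Ccnb2 and Plk1 passed the filter only through their 72 h counts. Cdk1 is the kinase whose activity defines mitosis. Cdk1 measured 0.758, 0.311 and 0.3998 CPM in the sham libraries, 0.5604, 0.462 and 0.726 at 10 min, 0.435, 0.118 and 0.0583 at 1 h, 0.298, 0.239 and 0.373 at 6 h, 0.8200, 2.41 and 0.464 at 24 h, and 25.6, 31.1 and 28.2 at 72 h. Its 3 libraries at 72 h lay above every earlier library, and the log2 fold change against sham was 5.84 (SE 0.452, edgeR adjusted p = 9.32e-09). Ccna2 encodes cyclin A2, the partner of Cdk kinases from S phase to early mitosis. Ccna2 measured 0.354, 0.207 and 0.133 CPM in the sham libraries, 0.187, 0.378 and 0.223 at 10 min, 0.193, 0.237 and 0.233 at 1 h, 0.179, 0.287 and 0.107 at 6 h, 0.518, 2.09 and 0.6703 at 24 h, and 27.5, 36.4 and 30.6 at 72 h. It was higher in each library at 72 h than in any earlier one, with a log2 fold change of 7.08 (SE 0.4196, edgeR adjusted p = 2.35e-10). Ccnb1 encodes cyclin B1, the main partner of Cdk1. Ccnb1 measured 0.152, 0 and 0.0888 CPM in the sham libraries, 0.0623, 0.08398 and 0 at 10 min, 0.241, 0.118 and 0.175 at 1 h, 0.0596, 0.0478 and 0.0533 at 6 h, 0.216, 1.06 and 0 at 24 h, and 18.5, 26.3 and 20.8 at 72 h. No sham library held more than 3 reads of Ccnb1, so against a floor of 3 reads per library its 72 h level was at least 149-fold higher, and the fitted log2 value, which is no bound, was 7.98 (SE 0.661, edgeR adjusted p = 2.5e-08), or 8.68 without sham replicate 1. Ccnb2 encodes cyclin B2, the other B-type cyclin of dividing somatic cells. Ccnb2 measured 0.253, 0.207 and 0.222 CPM in the sham libraries, 0.311, 0.252 and 0.0558 at 10 min, 0.2898, 0.415 and 0.3498 at 1 h, 0.179, 0.0478 and 0.373 at 6 h, 0.302, 1.17 and 0.206 at 24 h, and 24.4, 28.3 and 25.7 at 72 h. No library before 72 h reached the level of any library at 72 h, and the log2 fold change was 6.81 (SE 0.451, edgeR adjusted p = 9.98e-10). Per kilobase of exon, Ccnb2 had the highest level of the 54 genes at 72 h, 17.1 CPM per kb. The other members are Plk1 and Aurka, kinases of spindle assembly and mitotic entry, and Plk4, which starts centriole copying. Their log2 fold changes at 72 h were 6.34, 4.35 and 3.25, and all 3 were called higher.

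Both transcription factors of the list, which act on the promoters of the other genes, were higher at 72 h. Foxm1 encodes the forkhead factor of the G2 phase. Foxm1 measured 0.303, 0.467 and 0.622 CPM in the sham libraries, 0.374, 0.252 and 0.503 at 10 min, 0.338, 0.355 and 0.292 at 1 h, 0.417, 0.431 and 0.639 at 6 h, 0.691, 2.16 and 0.619 at 24 h, and 15.5, 20.1 and 15.1 at 72 h. Every library at 72 h exceeded every earlier library, and the log2 fold change was 5.16 (SE 0.378, edgeR adjusted p = 1.92e-09). Mybl2 encodes B-Myb, which joins the MuvB complex in S phase, and it passed the filter only through its 72 h counts. Mybl2 measured 0.101, 0.207 and 0.355 CPM in the sham libraries, 0.374, 0.126 and 0.112 at 10 min, 0.2898, 0.237 and 0.292 at 1 h, 0.358, 0.0957 and 0.0533 at 6 h, 0.302, 1.804 and 0.6703 at 24 h, and 6.02, 8.71 and 7.99 at 72 h. Its values at 72 h were also above all earlier ones, with a log2 fold change of 5.03 (SE 0.541, edgeR adjusted p = 2.36e-07).

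All 7 genes of chromosome structure were higher at 72 h, with log2 fold changes from 1.04 to 7.48. The largest was that of Ncapg, which passed the filter only through its 72 h counts. Mki67 encodes Ki-67, a coat of mitotic chromosomes used as the standard histological mark of cycling cells. Mki67 measured 1.67, 0.519 and 1.33 CPM in the sham libraries, 0.872, 0.882 and 0.558 at 10 min, 1.11, 1.303 and 1.11 at 1 h, 1.91, 0.574 and 1.01 at 6 h, 2.201, 6.12 and 2.17 at 24 h, and 69.7, 101 and 87.7 at 72 h. The lowest library at 72 h was above the highest of the other groups, and the log2 fold change was 6.18 (SE 0.4299, edgeR adjusted p = 9.58e-09). Top2a encodes topoisomerase II alpha, which untangles sister chromatids. Top2a measured 0.607, 0.674 and 1.199 CPM in the sham libraries, 0.685, 0.462 and 0.503 at 10 min, 1.21, 1.303 and 0.641 at 1 h, 0.536, 0.335 and 1.01 at 6 h, 2.29, 7.39 and 1.75 at 24 h, and 60.9, 99.1 and 73.9 at 72 h. It was higher at 72 h than in any earlier library and next highest in 24 h replicate 2, and the log2 fold change at 72 h was 6.53 (SE 0.4998, edgeR adjusted p = 3.06e-08). Smc2 and Smc4 encode the paired ATPases at the core of condensin. Smc2 measured 2.68, 2.54 and 2.75 CPM in the sham libraries, 3.86, 3.15 and 3.96 at 10 min, 3.53, 3.02 and 2.62 at 1 h, 1.67, 2.01 and 1.97 at 6 h, 5.22, 7.82 and 5.05 at 24 h, and 25.8, 36.02 and 27.97 at 72 h. Smc4 measured 14.1, 13.3 and 16.2 CPM in the sham libraries, 14.9, 12.5 and 15.7 at 10 min, 17.5, 13.5 and 16.4 at 1 h, 13.8, 15.4 and 17.04 at 6 h, 16.7, 21.3 and 17.7 at 24 h, and 45.6, 63.1 and 52.6 at 72 h. Both genes were above every earlier library in each library at 72 h, with log2 fold changes of 3.49 (SE 0.188, edgeR adjusted p = 3.99e-11) for Smc2 and 1.89 (SE 0.142, edgeR adjusted p = 2.64e-09) for Smc4. Ncapd2 encodes a condensin I subunit. Ncapd2 measured 19.9, 17.8 and 18.7 CPM in the sham libraries, 19.7, 20.2 and 17.4 at 10 min, 18.3, 17.00 and 17.9 at 1 h, 8.88, 14.6 and 14.1 at 6 h, 13.6, 19.2 and 9.28 at 24 h, and 36.5, 42.1 and 37.1 at 72 h. It was highest at 72 h without overlap, at 1.04 (SE 0.191, edgeR adjusted p = 0.000118), and at 6 h all 3 libraries lay below the 3 sham libraries. Ncapg and Ncaph encode the remaining condensin I subunits. Ncapg, with at most 3 reads in each sham library, was at least 66.0-fold higher at 72 h against the floor. Its fitted value of 7.48 moved to 10.75 without sham replicate 1 and to 6.88 without sham replicate 3, and the call stayed. Ncaph had a log2 fold change of 3.99 and was called higher.

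The 8 centromere and kinetochore genes were the most mixed group. 6 were higher at 72 h, and the 2 that were not called, Cenpa and Cenpf, are the only members of the 54 without a call at that time. Cenpe, Ndc80, Nuf2 and Knl1, which are among the 6, passed the filter only through their 72 h counts. Cenpa encodes the histone H3 variant that marks centromeres. Cenpa measured 41.05, 35.1 and 34.3 CPM in the sham libraries, 36.1, 31.7 and 34.8 at 10 min, 25.3, 31.5 and 35.7 at 1 h, 42.9, 31.1 and 44.3 at 6 h, 20.6, 21.5 and 20.5 at 24 h, and 41.9, 33.8 and 40.95 at 72 h. The 72 h libraries overlapped with sham, at 0.08 (SE 0.136, edgeR adjusted p = 0.625). Cenpf encodes a kinetochore and nuclear envelope protein. Cenpf measured 16.99, 10.8 and 9.195 CPM in the sham libraries, 15.3, 11.4 and 17.1 at 10 min, 14.8, 16.4 and 19.998 at 1 h, 5.07, 8.04 and 7.88 at 6 h, 4.88, 3.18 and 1.19 at 24 h, and 18.17, 22.9 and 18.6 at 72 h. All 3 libraries at 72 h were above the 3 of sham, but not above the highest library of 1 h, and the log2 fold change of 0.69 (SE 0.313, edgeR adjusted p = 0.0625) missed the threshold. Scaled to library totals in place of TMM, both were called higher at 72 h, with log2 fold changes of 0.67 for Cenpa (edgeR adjusted p = 0.000172) and 1.28 for Cenpf (edgeR adjusted p = 0.00165). Under that scaling the median of all genes was 0.61 at 72 h, 0.20 at 24 h and -0.12 at 6 h. With TMM it was 0.03, 0.01 and -0.01. DESeq2 called Cenpf at 72 h as well, at 0.71 (adjusted p = 0.0337).

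The remaining kinetochore genes were higher at 72 h. Spc24 encodes a subunit of the NDC80 complex, which grips microtubules. Spc24 measured 6.07, 6.02 and 7.06 CPM in the sham libraries, 4.296, 7.097 and 6.25 at 10 min, 6.95, 5.69 and 5.42 at 1 h, 5.36, 4.55 and 5.75 at 6 h, 4.100, 3.997 and 1.86 at 24 h, and 14.01, 16.5 and 16.8 at 72 h. It was above every earlier library at 72 h, with a log2 fold change of 1.30 (SE 0.217, edgeR adjusted p = 3.56e-05), and lay below sham in each library at 24 h. Nuf2 encodes another NDC80 subunit. Nuf2 measured 0.202, 0.311 and 0.133 CPM in the sham libraries, 0.125, 0.04199 and 0.0558 at 10 min, 0.145, 0.118 and 0.292 at 1 h, 0.0596, 0.144 and 0.107 at 6 h, 0.475, 1.31 and 0.206 at 24 h, and 16.1, 19.3 and 15.6 at 72 h. Its log2 fold change at 72 h was 6.29 (SE 0.429, edgeR adjusted p = 8.18e-10), without overlap with any earlier library. Cenpe encodes a kinesin that carries chromosomes to the spindle equator. Cenpe measured 0.253, 0.415 and 0.3998 CPM in the sham libraries, 0.187, 0.294 and 0.391 at 10 min, 0.193, 0.0592 and 0.233 at 1 h, 0.417, 0.335 and 0.107 at 6 h, 0.388, 0.849 and 0.309 at 24 h, and 15.7, 23.05 and 16.7 at 72 h. It was likewise highest in the 3 libraries at 72 h, at 5.67 (SE 0.351, edgeR adjusted p = 2.39e-10). Ndc80 and Spc25, the other NDC80 subunits, and Knl1, the scaffold of checkpoint proteins, had log2 fold changes of 4.80, 4.86 and 6.03 and were called higher. The 4 subunits of 1 complex therefore differed in size of change: Spc24, which was at 6.38 CPM in sham, had the smallest and Nuf2 the largest.

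All 4 spindle checkpoint genes were higher at 72 h, with a median log2 fold change of 4.98. Bub1 and Ttk among them passed the filter only through their 72 h counts. Bub1b encodes BubR1, a part of the complex that inhibits Cdc20. Bub1b measured 0.607, 1.04 and 0.844 CPM in the sham libraries, 0.623, 1.176 and 1.28 at 10 min, 0.531, 0.533 and 0.641 at 1 h, 1.19, 0.622 and 0.852 at 6 h, 1.29, 2.23 and 1.75 at 24 h, and 20.1, 28.01 and 22.2 at 72 h. Each library at 72 h was above every earlier library, and the log2 fold change was 4.81 (SE 0.269, edgeR adjusted p = 6.61e-11). Mad2l1 encodes Mad2, which binds Cdc20 in the same complex. Mad2l1 measured 3.39, 3.53 and 3.64 CPM in the sham libraries, 3.74, 3.95 and 3.29 at 10 min, 4.06, 4.26 and 2.97 at 1 h, 2.503, 3.59 and 2.503 at 6 h, 3.32, 5.34 and 3.51 at 24 h, and 21.01, 28.2 and 25.5 at 72 h. It was above all earlier libraries at 72 h. In sham it stood at 0.419 CPM per kb, beside 0.194 for Bub1b, and its log2 fold change was the smallest of the 4, 2.82 (SE 0.196, edgeR adjusted p = 1.03e-09). Bub1, a checkpoint kinase, was at least 71.0-fold higher at 72 h against the floor of 3 reads, and Ttk, the kinase that starts the checkpoint signal, had a log2 fold change of 5.15, or 6.14 without sham replicate 1, and was called higher in both fits.

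The chromosomal passenger complex, 1 kinase with 3 partners that corrects wrong attachments and later marks the cleavage site, was higher in all 4 genes at 72 h. Aurkb and Birc5 in this complex passed the filter only through their 72 h counts. Aurkb encodes the kinase of the complex, Aurora B. Aurkb measured 0.0506, 0 and 0.355 CPM in the sham libraries, 0.125, 0.252 and 0.112 at 10 min, 0.338, 0.178 and 0.117 at 1 h, 0.477, 0.0957 and 0 at 6 h, 0.518, 1.77 and 0.361 at 24 h, and 13.03, 14.9 and 12.5 at 72 h. All earlier libraries lay below those at 72 h, and the log2 fold change was 6.49 (SE 0.691, edgeR adjusted p = 4.7e-07), or 8.75 without sham replicate 3, the sham library with most of its reads. Birc5 encodes survivin, which anchors the complex. Birc5 measured 0.253, 0.363 and 0.267 CPM in the sham libraries, 0.498, 0.294 and 0.447 at 10 min, 0.193, 0.118 and 0.233 at 1 h, 0.119, 0.144 and 0.373 at 6 h, 0.604, 2.62 and 0.361 at 24 h, and 19.4, 21.7 and 23.5 at 72 h. It too was highest at 72 h in each library, at 6.17 (SE 0.516, edgeR adjusted p = 2.15e-08). Incenp encodes the scaffold. Incenp measured 4.45, 3.68 and 3.598 CPM in the sham libraries, 3.42, 3.53 and 3.35 at 10 min, 3.24, 3.02 and 2.97 at 1 h, 3.22, 3.64 and 3.302 at 6 h, 4.19, 7.43 and 4.54 at 24 h, and 31.6, 38.2 and 32.97 at 72 h. Its change was the smallest of the 4, 3.13 (SE 0.176, edgeR adjusted p = 6.85e-11), from a sham level of 1.22 CPM per kb, where the other 3 were at 0.0459 to 0.0864. Cdca8, which encodes borealin, had a log2 fold change of 5.93, or 6.64 without sham replicate 1, and was called higher in both fits.

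The 11 spindle and kinesin genes were all higher at 72 h, with log2 fold changes from 4.47 to 8.45. Among them, Ckap2l, Kif2c, Kif14, Kif15 and Kif18b passed the filter only through their 72 h counts. Tpx2 encodes a spindle assembly factor and activator of Aurora A. Tpx2 measured 0.506, 0.519 and 0.533 CPM in the sham libraries, 0.809, 0.504 and 0.558 at 10 min, 0.483, 0.296 and 0.3498 at 1 h, 0.775, 0.861 and 0.479 at 6 h, 1.47, 3.15 and 1.13 at 24 h, and 34.6, 45.8 and 38.8 at 72 h. No earlier library reached those of 72 h, and the log2 fold change was 6.24 (SE 0.3102, edgeR adjusted p = 1.49e-11). Aspm encodes a protein of the spindle poles. Aspm measured 0.202, 0.259 and 0.3998 CPM in the sham libraries, 0.249, 0.2100 and 0.335 at 10 min, 0.386, 0.296 and 0.233 at 1 h, 0.775, 0.431 and 0.479 at 6 h, 0.388, 0.778 and 0.619 at 24 h, and 13.8, 20.7 and 15.6 at 72 h. It was higher in every 72 h library than before, at 5.81 (SE 0.299, edgeR adjusted p = 2.1e-11). Kif2c encodes a kinesin that takes microtubules apart at kinetochores. Kif2c measured 0, 0 and 0.0888 CPM in the sham libraries, 0, 0 and 0.112 at 10 min, 0, 0 and 0 at 1 h, 0, 0.287 and 0.0533 at 6 h, 0.173, 0.814 and 0.103 at 24 h, and 12.4, 15.2 and 12.3 at 72 h. It was listed at 0 in each library at 1 h and held at most 2 reads in a sham library, so its 72 h level was at least 90.5-fold higher against the floor, and the fitted log2 value, again no bound, was 8.45 (SE 0.779, edgeR adjusted p = 1.94e-07), or 11.20 without sham replicate 3. Among the other motors, Kif18b was at least 53.2-fold higher by the same floor. Kif11, which pushes the spindle poles apart, and Kif15, which can take over from it, had log2 fold changes of 5.94 and 5.03. Kif4 and Kif22, motors that bind chromosome arms, had 4.73 and 4.92. Kif14, Nusap1 and Ckap2l, which bind or bundle microtubules, had 5.72, 4.47 and 6.91. All of these were called higher. Without sham replicate 3, Kif14 stood at 6.78 and Ckap2l at 7.97.

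The 4 genes of cohesion release and mitotic exit were higher at 72 h, with a median log2 fold change of 4.77. Sgo1 passed the filter only through its 72 h counts. Cdc20 encodes the activator of the anaphase promoting complex. Cdc20 measured 1.06, 1.19 and 1.73 CPM in the sham libraries, 0.809, 1.302 and 0.894 at 10 min, 1.26, 1.78 and 1.22 at 1 h, 1.61, 1.44 and 1.704 at 6 h, 2.11, 2.26 and 1.55 at 24 h, and 23.7, 29.8 and 25.04 at 72 h. The 72 h libraries stood above all others, and the log2 fold change was 4.28 (SE 0.215, edgeR adjusted p = 1.62e-11). Ube2c encodes the ubiquitin-conjugating enzyme of that complex. Ube2c measured 0.506, 0.415 and 0.489 CPM in the sham libraries, 0.374, 0.294 and 0.447 at 10 min, 0.2898, 0.415 and 0.292 at 1 h, 0.238, 0.144 and 0.692 at 6 h, 0.604, 1.49 and 0.309 at 24 h, and 21.5, 25.4 and 24.7 at 72 h. Its log2 fold change was 5.65 (SE 0.387, edgeR adjusted p = 1.09e-09), again without overlap with an earlier library. Espl1, the protease separase that cuts cohesin, and Sgo1, shugoshin, which protects centromeric cohesin until anaphase, had log2 fold changes of 3.56 and 5.26 and were called higher, and Sgo1 stood at 6.5 without sham replicate 3.

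The 7 genes of the midzone and cytokinesis closed the sequence with log2 fold changes from 4.15 to 5.37 at 72 h, the narrowest range of the roles with more than 2 genes. Ect2 passed the filter only through its 72 h counts. Racgap1 encodes the GTPase-activating subunit of centralspindlin, which bundles the central spindle. Racgap1 measured 0.607, 0.933 and 1.33 CPM in the sham libraries, 1.49, 1.176 and 1.396 at 10 min, 1.497, 1.184 and 0.933 at 1 h, 0.954, 1.005 and 1.33 at 6 h, 1.94, 4.39 and 2.32 at 24 h, and 26.3, 36.4 and 29.4 at 72 h. Each library at 72 h was above all earlier ones, at 4.98 (SE 0.295, edgeR adjusted p = 1.42e-10). Anln encodes anillin, a scaffold of the contractile ring. Anln measured 0.859, 0.778 and 0.844 CPM in the sham libraries, 0.872, 0.798 and 0.6701 at 10 min, 0.676, 0.888 and 1.17 at 1 h, 0.834, 1.005 and 0.959 at 6 h, 0.863, 2.26 and 1.03 at 24 h, and 26.4, 37.1 and 28.00 at 72 h. Its log2 fold change at 72 h was 5.19 (SE 0.2804, edgeR adjusted p = 3.99e-11), without overlap. Kif23, the motor subunit of centralspindlin, Ect2, the exchange factor it recruits, Prc1, the midzone bundling protein, and the motors Kif20a and Kif20b had 4.46, 5.37, 4.84, 4.15 and 4.87, and all were called higher.

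**Figure D2:**
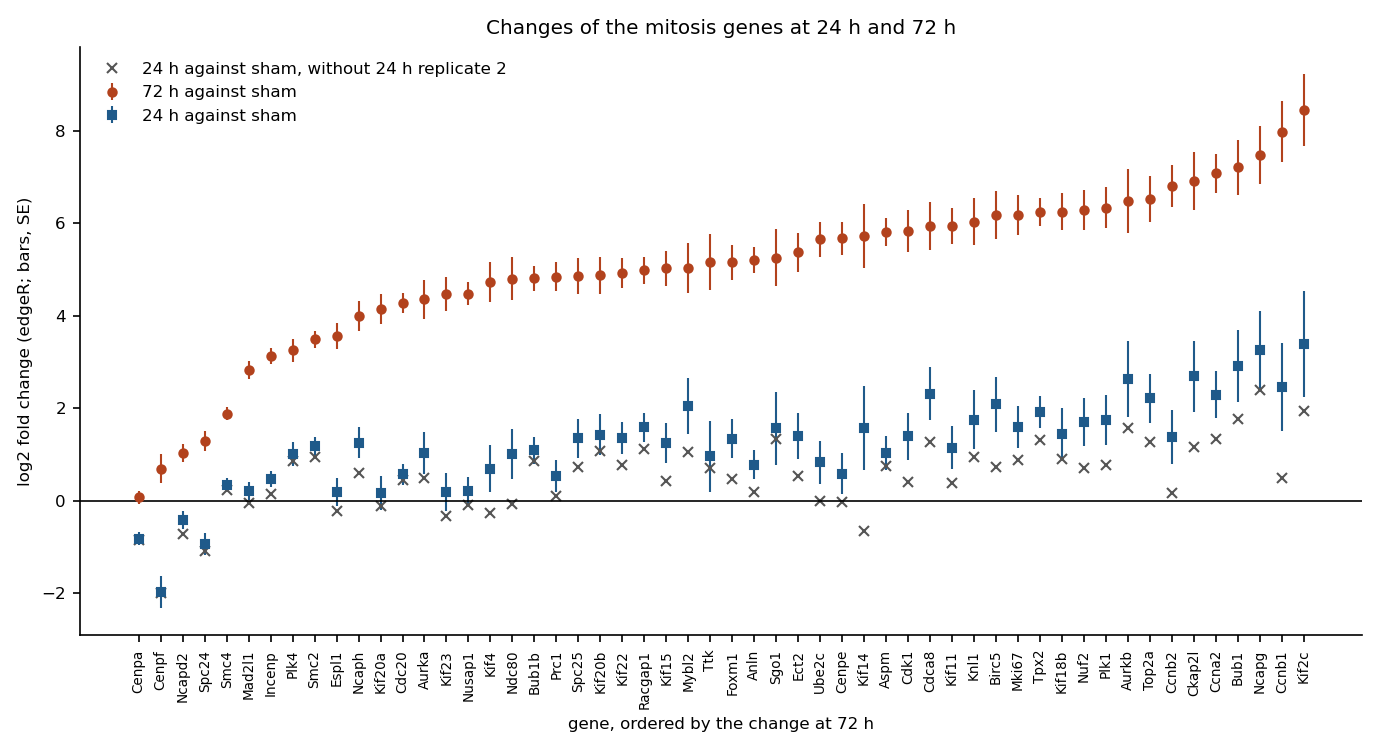
Log2 fold change against sham at 24 h and at 72 h for each of the 54 genes, with bars of 1 SE from the edgeR fit, genes ordered along the horizontal axis by the change at 72 h, and crosses for 24 h without replicate 2. At 72 h the values run from 0.08 for Cenpa to 8.45 for Kif2c, and at 24 h from -1.97 for Cenpf to 3.39 for Kif2c.

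**Figure D3:**
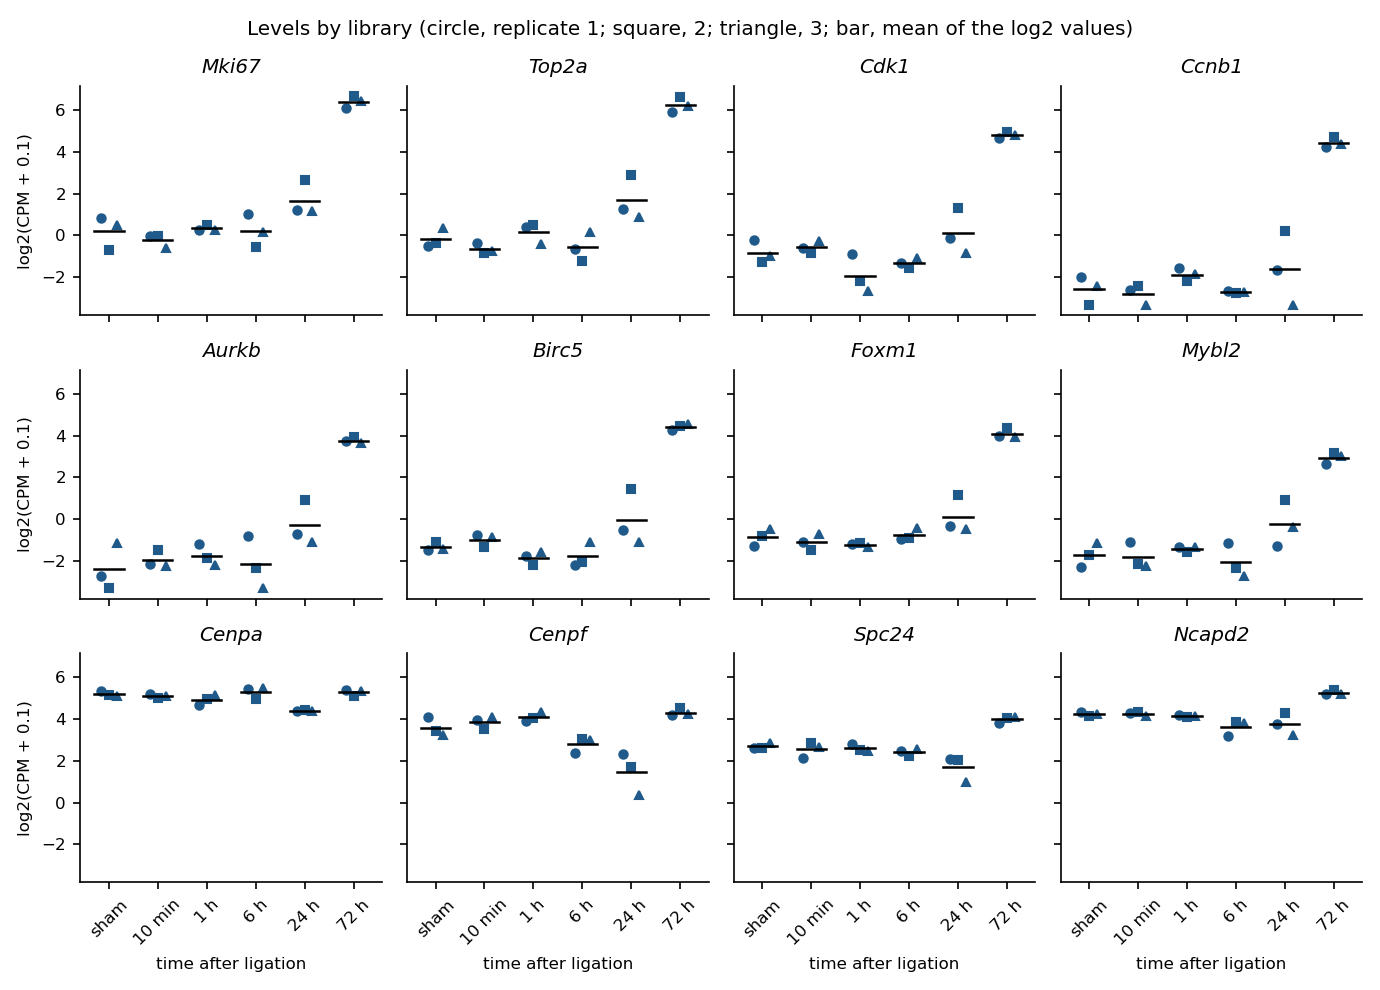
Log2 of TMM-scaled CPM plus 0.1 (vertical axis) of 12 of the genes by group (horizontal axis), with 1 symbol per mouse and a bar at the mean. In the upper 8 panels the symbols at 72 h stand above the rest and 24 h replicate 2 above its neighbours, while Cenpa, Cenpf, Spc24 and Ncapd2 start high and dip at 6 h or 24 h.

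At 24 h the picture was partial. 33 of the 54 genes were called higher than sham and 3 lower, where 23.7% of all genes were higher and 20.2% lower, and the median log2 fold change was 1.30 over the 54 and 0.01 over all genes. 20 of the 54 had all 3 libraries above sham, beside 28.0% of all genes, and 3 had all 3 below, beside 25.7%. The libraries of this group differed from each other. 24 h replicate 2 was the highest of its group in 51 of the 54 genes, against 30.8% of all genes. It held 50 of the 54 above every sham library, where 40.9% of all genes were, while replicates 1 and 3 held 34 (39.1% of all genes) and 27 (42.5%). Without replicate 2, 9 were higher and 4 lower, the median was 0.57, and the fourth lower gene was Ncapd2 at -0.71 (edgeR adjusted p = 0.00435). The shares of 23.7% and 20.2% of all genes are from the fit with all libraries, and those without replicate 2 are not given here. An excess over all genes is therefore not shown for that fit. The summed macrophage markers (14 genes) were 699.7, 748 and 899 CPM in replicates 1 to 3 at 24 h, the neutrophil markers (8) 177, 44.04 and 756 CPM, and the fibroblast markers (12) 1138, 1569 and 1089 CPM. Fibroblast markers were thus highest and neutrophil markers lowest in replicate 2, and their part in the result was not tested.

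The 9 genes called higher at 24 h in every fit that left out 1 library were Ccna2, Plk4, Top2a, Smc2, Ncapg, Bub1b, Cdca8, Tpx2 and Racgap1. Smc2 had the smallest adjusted p of them, with a log2 fold change of 1.19 (SE 0.188, edgeR adjusted p = 0.000102), and all 3 of its libraries were above sham. Tpx2 was at 1.91 (SE 0.344, edgeR adjusted p = 0.000297) and Racgap1 at 1.59 (SE 0.306, edgeR adjusted p = 0.000519). Ccna2 was at 2.29 (SE 0.508, edgeR adjusted p = 0.00163), Top2a at 2.22 (SE 0.529, edgeR adjusted p = 0.00373) and Bub1b at 1.09 (SE 0.289, edgeR adjusted p = 0.00539). Without 24 h replicate 2 these 6 stood at 0.95, 1.32, 1.13, 1.35, 1.27 and 0.86. For Ccna2, Top2a and Tpx2 the fold was then over 1.5 times smaller, and the calls stayed. Ncapg and Cdca8, with few sham reads, were at 3.27 and 2.32, at 2.40 and 1.28 without 24 h replicate 2, and at 6.54 and 3.03 without sham replicate 1. Plk4 was at 1.01 (SE 0.254, edgeR adjusted p = 0.00387). 7 of the 9, all but Top2a and Ncapg, were called higher in every alternative fit that was run.

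The other 24 genes called higher at 24 h all lost the call when replicate 2 was left out. Of the 33 calls, 13 were lost without sham replicate 1, 11 without sham replicate 2 and 9 without sham replicate 3. Mki67 was at 1.60 (SE 0.454, edgeR adjusted p = 0.0105) with all libraries and at 0.88 without 24 h replicate 2, and Birc5 at 2.08 (SE 0.588, edgeR adjusted p = 0.00887) and 0.73. Foxm1 was at 1.35 (SE 0.4198, edgeR adjusted p = 0.0146) and Mybl2 at 2.06 (SE 0.6102, edgeR adjusted p = 0.0112). Without 24 h replicate 2 this pair stood at 0.48 and 1.05, and both also lost the call without sham replicate 1. Nuf2 went from 1.70 (SE 0.526, edgeR adjusted p = 0.0137) to 0.71 and lost its call without sham replicate 3 too. Cdk1, at 1.39 (SE 0.512, edgeR adjusted p = 0.0363), fell to 0.42 and also lost the call without sham replicate 2 or 3. Incenp, at 0.47 (SE 0.177, edgeR adjusted p = 0.0377), behaved likewise, with 0.16 left. Aurkb was at 2.63 (SE 0.821, edgeR adjusted p = 0.0163) and Kif2c at 3.39 (SE 1.15, edgeR adjusted p = 0.0268). Both lost the call without sham replicate 1, sham replicate 2 or 24 h replicate 2, and stood at 1.58 and 1.94 without the last. Without sham replicate 3 they stood at 4.90 and 6.14.

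The calls of Aspm, Ccnb1 and Cdc20 at 24 h rested on still narrower margins. Aspm, at 1.03 (SE 0.371, edgeR adjusted p = 0.0307), lost its call without sham replicate 1 or 2 or without 24 h replicate 2 or 3, and its log2 value ran from 0.76 to 1.36 over all fits that left out 1 library. Ccnb1, at 2.46 (SE 0.941, edgeR adjusted p = 0.044), kept its call in only 4 of 18 such fits, with values from 0.49 to 3.16. Cdc20, at 0.57 (SE 0.228, edgeR adjusted p = 0.0496), kept it in 5 of 18, with values from 0.43 to 0.82. Of the 18 genes not called at 24 h, Ccnb2 was at 1.38 (SE 0.587, edgeR adjusted p = 0.0662), Anln at 0.78 (SE 0.311, edgeR adjusted p = 0.0504) and Smc4 at 0.35 (SE 0.142, edgeR adjusted p = 0.0516). Ube2c was at 0.83 (SE 0.456, edgeR adjusted p = 0.149), Cenpe at 0.58 (SE 0.4404, edgeR adjusted p = 0.297) and Mad2l1 at 0.21 (SE 0.201, edgeR adjusted p = 0.403). The other 12 were Aurka, Espl1, Kif14, Kif20a, Kif23, Kif4, Ncapd2, Ndc80, Nusap1, Prc1, Sgo1 and Ttk.

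By role, the genes called higher at 24 h were 5 of 7 entry kinases and cyclins (2 without 24 h replicate 2), both transcription factors (0), 5 of 7 chromosome structure genes (3), 3 of 8 centromere and kinetochore genes (0), 2 of 4 checkpoint genes (1) and 4 of 4 passenger complex genes (1). They were 8 of 11 spindle and kinesin genes (1), 1 of 4 genes of cohesion release (0) and 3 of 7 midzone and cytokinesis genes (1). Of all genes, 23.7% were higher in this comparison with all libraries, and no such share is given for the fit without replicate 2. The counts with all libraries for cohesion release and for the centromere and kinetochore lie near 23.7%. Median log2 fold changes at 24 h were highest for the passenger complex, 2.20, and lowest for cohesion release, 0.70. Without replicate 2 they were 1.01 and 0.22, and the centromere and kinetochore genes had the lowest, -0.05.

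3 genes ran against the others at 24 h. Cenpa was lower than sham at -0.82 (SE 0.139, edgeR adjusted p = 0.000184), Cenpf at -1.97 (SE 0.3499, edgeR adjusted p = 0.000435) and Spc24 at -0.93 (SE 0.231, edgeR adjusted p = 0.00357). All 3 libraries of each gene lay below all 3 of sham, and each call held in every alternative fit, library-total scaling included. The log2 values over fits that left out 1 library ran from -0.87 to -0.73 for Cenpa, from -2.45 to -1.62 for Cenpf and from -1.11 to -0.66 for Spc24. Without 24 h replicate 3, the lowest library of both Cenpf and Spc24, those 2 genes were at -1.62 and -0.66. All 3 are centromere or kinetochore genes and stood among the 5 highest of the 54 genes in sham. From 24 h to 72 h, Cenpa rose by 0.90 (SE 0.138, edgeR adjusted p = 2.98e-05), Cenpf by 2.67 (SE 0.347, edgeR adjusted p = 1.27e-05) and Spc24 by 2.23 (SE 0.227, edgeR adjusted p = 2.88e-07) on the log2 scale.

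In the first hours few of the 54 genes were called changed. Low counts limit these tests, since 42 of the 54 averaged under 1 CPM in sham, 41 at 10 min, 39 at 1 h and 41 at 6 h. At 10 min and at 1 h edgeR called none of them, where it called 0.0307% of all genes higher and 0.0429% lower at 10 min, and 0.288% and 0.00613% at 1 h. At an unadjusted p under 0.05 the counts were 3 of 54 at 10 min and 0 of 54 at 1 h, beside 7.01% and 5.51% of all genes, and DESeq2 and limma on log2 FPKM also called 0 at both times. Between 10 min and 1 h edgeR called none (2 at an unadjusted p under 0.05, beside 7.43% of all genes, and 0 by DESeq2 or limma), beside 0.251% of all genes higher and 0.0552% lower. Genes with all 3 libraries above sham numbered 4 at 10 min (11.0% of all genes), 2 at 1 h (8.25%) and 2 at 6 h (23.1%). Those with all 3 below numbered 5 at each of these times (9.07%, 8.66% and 21.2% of all genes). At 6 h none was higher and Ncapd2 was lower, beside 16.3% and 12.2% of all genes, and the median was -0.12. Ncapd2 was at -0.58 (SE 0.198, edgeR adjusted p = 0.0365), a call lost without 6 h replicate 1 (-0.39) or without any 1 of the sham libraries, and lost with no filter on low counts. Between 1 h and 6 h, Cenpf was lower by -1.28 (SE 0.3304, edgeR adjusted p = 0.0112) and Smc2 by -0.70 (SE 0.2104, edgeR adjusted p = 0.0217) on the log2 scale, beside 10.0% of all genes lower and 14.5% higher. Both calls were lost without 6 h replicate 1, which left Cenpf at -1.10, and that of Smc2 was also lost without 1 h replicate 1, at -0.58. Smc2 lost it as well with only the 6 libraries compared and with limma on log2(FPKM + 1). Between 6 h and 24 h, 27 genes were higher and 2 lower, Cenpa and Cenpf, beside 14.2% and 13.7% of all genes. The 29 calls were 9 without 24 h replicate 2, and 42 higher and 1 lower under library-total scaling. Shares of all genes in these fits are not given here. Cenpf, at -1.17 (SE 0.358, edgeR adjusted p = 0.0241), lost its call without 6 h replicate 2 or 3 or 24 h replicate 2 or 3. Its values ran from -1.63 to -0.81 over fits that left out 1 library. The call was also lost under library-total scaling, with no filter on low counts, with only the 6 libraries compared and with limma on log2(FPKM + 1).

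Levels between genes were compared per kilobase of exon. In sham the 54 genes had a median of 0.0989 CPM per kb, from 0.00679 for Kif2c to 6.28 for Cenpa, and 3 of them lay above the median of all genes tested, 2.74. At 24 h the median was 0.255 CPM per kb with 2 genes above the all-gene median of 2.98. At 72 h it was 3.71 CPM per kb, from 0.602 for Kif14 to 17.1 for Ccnb2, and 31 of the 54 lay above the all-gene median of 3.12. The order of the 54 genes in sham and at 72 h had a Spearman rho of 0.56, and that at 24 h and 72 h 0.76 (n = 54 genes, which share libraries and gene lengths, as a description). Cenpa led the order in all groups up to 24 h.

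**Figure D4:**
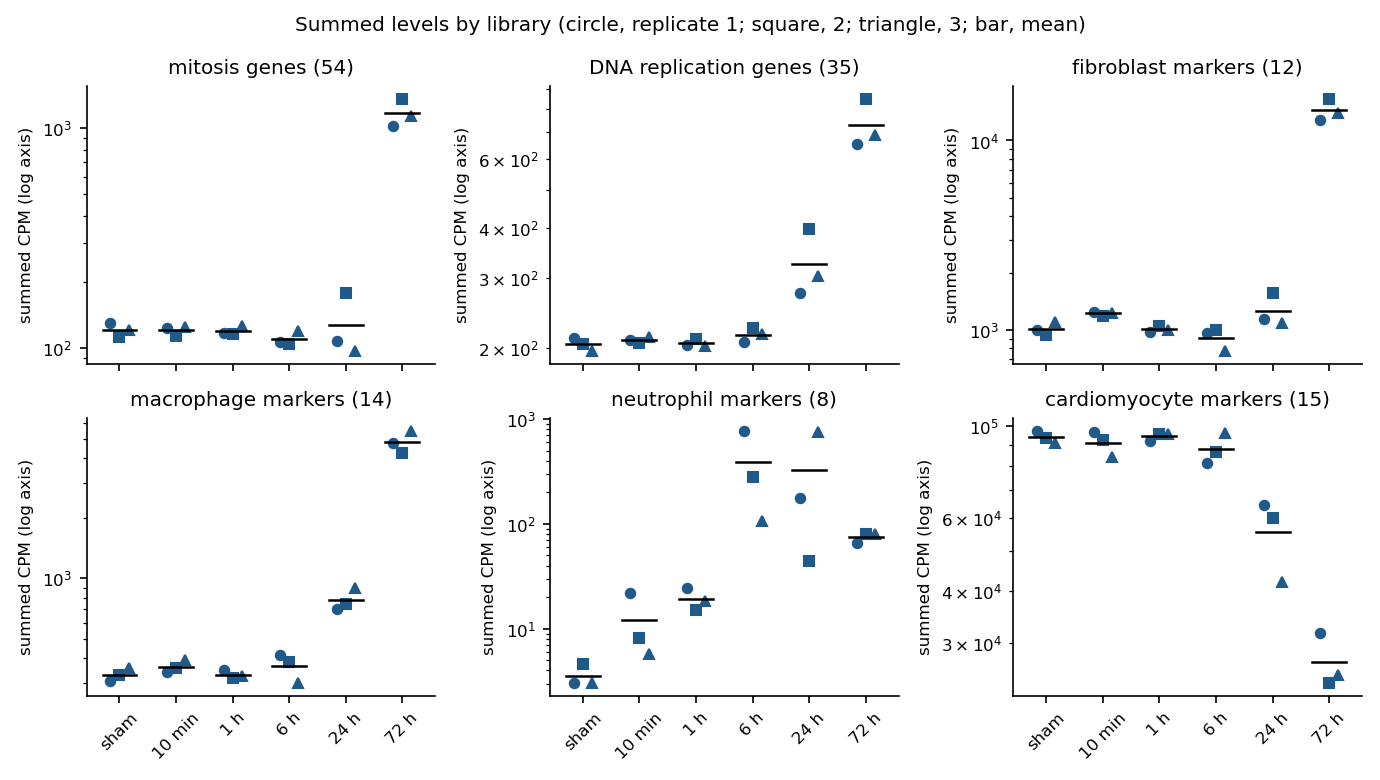
Summed TMM-scaled CPM (vertical log axes) of the 54 mitosis genes, 35 DNA replication genes and 4 cell type marker lists in each of the 18 libraries by group (horizontal axes), with 1 symbol per mouse and a bar at the mean. The mitosis sum lies between 97.0 and 178 CPM up to 24 h and between 1027 and 1364 CPM at 72 h.

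Other genes of the same pathways were read from lists of 111 mitosis genes outside the 54 and of 35 DNA replication genes. Of the 111, 85 were called higher and 8 lower at 72 h with a median log2 fold change of 1.63, and 50 higher and 8 lower at 24 h with a median of 0.50. Of all genes, 34.2% were higher and 32.2% lower at 72 h, and 23.7% and 20.2% at 24 h. By list at 72 h, inner centromere and kinetochore genes had 25 of 27 higher, with Spag5 at 6.21 and Cenpn at 2.85. Genes of the spindle, centrosome and cytokinesis had 27 of 31 higher, with Arhgap11a at 3.57 and Iqgap3 at 5.57. Entry regulators had 14 of 17 higher and 3 lower, and Cks1b, a Cdk-binding subunit, was at 3.02 and Cdca3 at 6.32. The checkpoint and anaphase promoting complex list had 12 of 22 higher and 5 lower. In that list Pttg1, which encodes securin, the inhibitor of separase, was at 85.3 ± 3.90 CPM in sham, 47.9 ± 9.52 at 24 h and 29.0 ± 3.52 at 72 h (SD, n = 3), a log2 fold change of -1.56 at 72 h (SE 0.134, edgeR adjusted p = 1.27e-08), and Kntc1 was at 6.22. Cohesin and condensin II genes had 7 of 14 higher and 0 lower, with a median of 0.25, and Ncapg2 was at 4.18 and Cdca5, sororin, at 6.39. DREAM, MuvB and E2F regulators had 13 of 19 higher and 4 lower, with a median of 0.43, and E2f2 was at 5.27 and Rbl1 at 1.72.

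DNA replication genes act in S phase. At 72 h 34 of 35 were higher and none lower, beside 34.2% of all genes higher, and their median log2 fold change was 2.12. At 24 h 21 of 35 were higher, beside 23.7% of all genes, and the median of the replication genes was 0.81. Their summed level was 211, 204 and 196 CPM in sham, 275, 399 and 303 CPM at 24 h, and 653, 851 and 690.2 CPM at 72 h. The groups at both times lay above sham in each library, and replicate 2 was again the highest at 24 h and at 72 h. Mcm6, a subunit of the replicative helicase, was at 8.64 ± 0.125 CPM in sham, 22.05 ± 6.06 at 24 h and 50.4 ± 7.56 at 72 h (SD, n = 3). Pcna, the sliding clamp, was at 41.5 ± 3.82, 64.8 ± 7.19 and 113 ± 12.7 CPM.

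Markers of the cell types in the tissue moved at 72 h as well. The counts called below stand beside 34.2% of all genes called higher at 72 h and 32.2% called lower. Macrophage markers summed to 305, 328 and 354 CPM in sham and 4778, 4243 and 5495 at 72 h, with 14 of 14 genes called higher. Fibroblast markers were at 943 to 1098 CPM in sham and 12905, 16630.2 and 13907 CPM at 72 h, with 12 of 12 higher. Endothelial markers (10 genes) were at 1730.0 to 1840.1 CPM in sham and 954 to 1228 CPM at 72 h, with 8 called lower and 0 higher. Pericyte and smooth muscle markers (8) were at 1339 to 1383 CPM in sham and 588 to 714 CPM at 72 h, with 5 called lower and 2 higher. Neutrophil markers were at 3.03 to 4.62 CPM in sham, 775, 278 and 107 CPM at 6 h, and 65.5, 80.5 and 79.3 CPM at 72 h, where 6 of 8 were called higher. Markers of T, B and NK cells, 7 of which were tested, were at 3.42 to 4.701 CPM in sham and 11.3 to 13.97 CPM at 72 h, with 6 called higher. No list had a gene at 0 in every library. Replicate 2 at 72 h was the highest of its group in 51 of the 54 mitosis genes, against 37.0% of all genes. Its mitosis sum was 1364 CPM beside 1027 and 1138. This replicate was also the highest of its group in fibroblast, endothelial, pericyte and smooth muscle, and neutrophil markers. In macrophage, cardiomyocyte, and T, B and NK cell markers it was the lowest. Which cells the mitosis transcripts came from was not tested.

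The promoters were then read for the elements shown above. RefSeq windows from 250 bases before to 50 after the start were matched for 46 of the 54 genes, in 48 windows. CCAAT was present on either strand in 35 of 48 windows (72.9%) and in 37.4% of all 32851 windows. The cell cycle homology letters, TTTGAA or TTCGAA on either strand, were in 39 of 48 (81.2%) and in 19.2% of all windows, and both elements were in 33 (68.8%) and in 7.52%. From 100 bases before the start to the end of the window, the homology letters were in 75.0% of member windows and 8.59% of all windows. CCAAT was there in 64.6% and 23.4%. The E2F letters, TTCCCGC or TTGGCGC or TTCGCGC or TTGCCGC, were in 10 of 48 (20.8%) and in 9.57% of all windows. DNA replication genes showed the opposite order of these 2 elements, with E2F letters in 72.7% of 33 windows and homology letters in 18.2%. CCAAT was in 63.6% of the same 33 windows. Mitosis genes outside the 54 held homology letters in 37.7% of 106 windows and CCAAT in 58.5%. TTCGAA is its own reverse complement, and CCAAT and the E2F letters TTGGCGC can share bases. The genes with neither CCAAT nor homology letters were Birc5, Mad2l1, Mybl2, Ncaph, Nuf2, Nusap1 and Plk4, and all of them were called higher at 72 h. Median log2 fold changes at 72 h were 5.19 for the 37 genes with homology letters and 5.03 for the 9 without. A match of letters is a description of the sequence, and a missing match says only that the letters are not in this window.

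**Figure D5:**
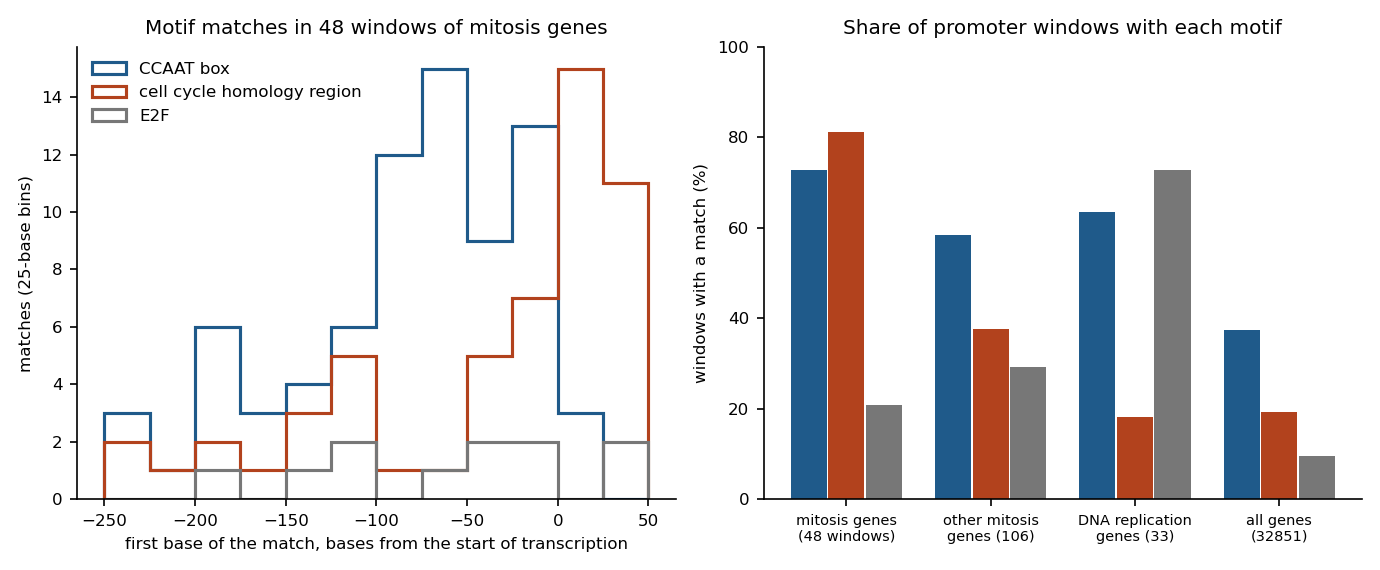
Left, number of matches of CCAAT, the cell cycle homology letters and the E2F letters by position in bases from the RefSeq start in the 48 windows of the mitosis genes, and right, percent of windows with a match for these, other mitosis genes, DNA replication genes and all genes. Homology letters were in 81.2% of mitosis windows and 19.2% of all windows.

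Reads of overlapping genes could not be separated with certainty, since the use of strand in counting is not given in the sources used here. 21 of the 54 genes overlap another gene of the table, and 8 overlap a protein-coding gene with a mean over 10 counts: Ccna2 with Exosc9, Ncapg with Lcorl, Cdca8 with 9930104L06Rik, Nusap1 with Oip5, Kif4 with Pdzd11, Cdc20 with Elovl1, Prc1 with Rccd1 and Kif20a with Cdc23. The log2 fold changes of the 8 partners at 72 h ran from -0.21 to 4.09, the highest for Oip5, which is itself a centromere gene.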

How the data were processed

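Total RNA of left ventricular heart tissue from 18 mice was enriched for poly(A), primed with random hexamers and amplified, per the labels' protocols. No molecular identifiers are described, so floors cover counting error only. Read counts per Ensembl gene were made by the authors with cutadapt 1.18, HISAT2 2.1.0 and featureCounts on mm10, per the submitters' processing notes. The gene annotation, the strand setting and the treatment of reads that map to several places are not given in the sources used here. FPKM values, which correct the counts for gene length and depth, were deposited beside them by the authors. They were used for gene lengths and for an alternative with limma on log2(FPKM + 1). The deposited FPKM columns of 6 h replicates 2 and 3 hold each other's counts, which was undone before use.

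Groups come from the sample titles, and each library is 1 mouse. The counts, as deposited, were tested in edgeR 4.0.16 (R 4.3.3) with TMM scaling, filterByExpr, glmQLFit and glmQLFTest, 1 mean per group over all 18 libraries. The filter removed 14272 of 30583 genes and left 16311. The biological coefficient of variation was 0.149 and TMM factors ran from 0.825 to 1.434. P-values are two-sided and adjusted over all genes tested. limma 3.58.1 and DESeq2 1.42.0 served as alternatives. The fit was tested on simulated data.

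GENCODE M21 matched 30512 gene IDs, and 71 were not matched. Promoters are those of the RefSeq table for GRCm38.p6, and in 33 of the 48 windows of the genes described the first 20 bases after the start lie within the first 400 bases of a GENCODE transcript. Gene lists and the 54 genes were chosen with earlier results of these data known. Values in every library are given for Mki67, Top2a, Cdk1, Ccnb1, Aurkb, Birc5, Foxm1 and Mybl2, for the 2 genes of each role with the smallest adjusted p at 72 h, for the largest and smallest change at 72 h, for genes not called at 72 h, and for genes called at 6 h or earlier or lower at any time. From other lists of pathway genes, the 2 with the smallest adjusted p at 72 h were named, and Oip5 was named after its value was seen. Marker lists for mast cells and platelets, red blood cells, epicardium and atrium were read as well and are not described further, except that 72 h replicate 1 was the highest library for epicardial markers and 6 h replicate 1 for atrial markers.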

Additional observations from a re-analysis of the deposited data

Results flagged for a closer look

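Ncapd2 and Spc24 were picked because they were called against sham in opposite directions at different times, and the difference between those times was called too. The pick used that call, so the adjusted p-values of the differences are descriptions. The test between times does not show that the earlier level was below sham. Ncapd2, the condensin subunit, was at a log2 fold change of -0.58 against sham at 6 h and 1.04 at 72 h, and the difference of 1.62 (SE 0.197, edgeR adjusted p = 1.31e-06) was shown by all 3 libraries at each time. The call of Ncapd2 at 6 h was lost without any 1 of the sham libraries, without 6 h replicate 1 and with no filter on low counts, with adjusted p up to 0.172 in edgeR fits that left out 1 library. Spc24, the NDC80 subunit, was at -0.93 at 24 h and 1.30 at 72 h, and the difference was 2.23 (SE 0.227, edgeR adjusted p = 2.88e-07). Each pair of comparisons shares the 3 sham libraries.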

How the results depend on the processing

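The count at 72 h against sham was 52 to 54 of 54 under every alternative run, and that at 72 h against 24 h was 54. Median log2 fold changes depend more on the scale: with limma on log2(FPKM + 1), which understates changes of low genes, they were 2.30 in place of 5.15 at 72 h, 0.15 in place of 1.30 at 24 h and 2.097 in place of 4.0 between these times. Counts at 10 min and 1 h stayed at 0. At 6 h against sham, 1 gene became 2 under library-total scaling, with only the 6 libraries compared, with limma on log2(FPKM + 1) and with DESeq2, became 0 with no filter on low counts, and ran from 0 to 3 when single libraries were left out. At 24 h against sham, 36 calls became 15 with only the 6 libraries compared and 17 with limma on log2(FPKM + 1), and ran from 13 (without 24 h replicate 2) to 40 (without 24 h replicate 3) when single libraries were left out. At 6 h against 1 h, 2 calls became 1 with only the 6 libraries compared and 1 with limma, and ran from 0 to 3. At 24 h against 6 h, 29 calls became 2 with only the 6 libraries compared, 14 with limma and 43 under library-total scaling, and ran from 9 to 40. Comparing only 6 libraries leaves fewer residual degrees of freedom. The cause of the other shifts was not tested. Of 2052 values of named genes under alternatives, 1960 kept their call, 92 lost it (87 at 24 h and 5 at 6 h) and 0 reversed.

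Replicate numbers were not used as pairs in the main fit. Of 45 same-numbered pairs, 15 had a correlation over 0.1, and 7 of 18 libraries correlated best with their own number. The median correlation was 0.04 for same-numbered and -0.02 for other pairs. This check cannot exclude a pairing of the mice. With the replicate number as a block, 33 genes were called at 24 h against sham, and the calls of Cdk1, Ccnb1, Kif11 and Kif18b there and of Aurkb at 24 h against 6 h were lost. The counts of the other comparisons were the same with it. Low sham counts limit the folds: 42 of the 54 genes averaged under 1 CPM there.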
